A study of Drosophila melanogaster with 12 samples.

Results

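Transcript levels in the heads of adult cn bw flies were compared between the subjective thermophase, when each day had been warm for 12 h, and the subjective cryophase, when it had been cold for 12 h. Flies of this Drosophila melanogaster strain, which carries mutations in 2 eye pigment genes, were reared in darkness, first at 25 °C and then in a daily alternation of 12 h at 18 °C and 12 h at 25 °C, and were collected every 4 h over 2 days after that alternation had given way to constant 25 °C. All 12 arrays of the series entered the comparison, each holding pooled heads of 1 collection: 6 arrays of the subjective thermophase (AA14, AA18, AA22, AA38, AA42 and AA46) and 6 of the subjective cryophase (AA2, AA6, AA10, AA26, AA30 and AA34), where the number gives the hours after AA0, the onset of the first subjective cryophase in constant conditions. Day 1 (AA2 to AA22) and day 2 (AA26 to AA46) each held 3 arrays of either phase, and day was a block in the fit. Darkness and 25 °C were the same at every collection. The labels do not give the age or sex of the flies, and they do not say whether separate cultures were used for the collections, so p-values here measure only how far these arrays spread.

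Circadian clocks in the fly head run on a transcriptional feedback loop in which CLOCK and CYCLE switch on period and timeless, whose products later block that activation. A daily temperature cycle can set the phase of this loop in the dark, and a rhythm that goes on once the temperature is held constant is called circadian rather than driven by temperature. Heads hold the compound eyes, the brain, muscle, glia and a fat body that is a main site of fat, sugar and detoxification metabolism. In RNA from whole heads, fewer cells of a type and less RNA per cell cannot be told apart.

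Values are log2 expression levels after RMA, a method that makes the distributions of the arrays nearly equal, so each difference is relative to all transcripts on the arrays. A transcript was tested when more than 50% of its 12 values lay above the 20th percentile of their array, which left 11156 of 13966 probe sets (the sets of oligonucleotides that each represent 1 transcript). A probe set passed at a Benjamini-Hochberg adjusted p under 0.05 over all 11156 in limma. Levels of different genes are not compared, since probe sets differ in brightness.

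A single array stood apart. AA46 was the last collection and a thermophase array. The remaining 11 arrays had mean correlations with the rest of 0.9961 to 0.9971 over the 13966 probe sets, whether tested or not. For AA46 this was 0.9924. Its 18S ribosomal RNA control read 4.09 log2, where all others read 2.78 to 2.99, and its summed signal of the glial markers repo and Gs2 was 2195 on the linear scale, against 3441 to 3863 on the cryophase arrays. The median of this glial sum over the thermophase arrays was 3377. The sum mainly reads Gs2, whose probe set averaged 11.57 log2 in the thermophase, against 6.23 for repo. Photoreceptor markers (trp, inaD and Arr2) were bright in either phase, with sums of 9773 to 11998 on thermophase arrays and 9536 to 11323 on cryophase arrays, and so were the yolk protein and lipoprotein genes of the head fat body. The neuronal marker elav averaged 3.17 log2 in the thermophase and 3.21 in the cryophase and did not pass the filter. No marker of photoreceptors, neurons, glia, fat body, muscle, gut, testis or ovary passed the test between phases. Where leaving AA46 out changed a call or a count named below by over 1.5 times, the value without it is given.

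Between phases, 38 of the 11156 probe sets passed (0.341%), 17 of them higher in the subjective thermophase (0.152%) and 21 lower (0.188%). The differences were small. Their size was 1.15-fold to 1.63-fold, with a median of 1.25-fold. In all, 31 of the 38 belonged to a single named gene, 13 higher and 18 lower. The genes that rose included an odorant-binding protein, a diacylglycerol acyltransferase, a carbonic anhydrase and a multicopper oxidase, and those that fell included enzymes of detoxification, of tyrosine and isocitrate breakdown and of triglyceride synthesis. At an unadjusted p under 0.05, 511 probe sets were higher (4.58%) and 478 lower (4.28%) in the thermophase.

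**Figure D1:**
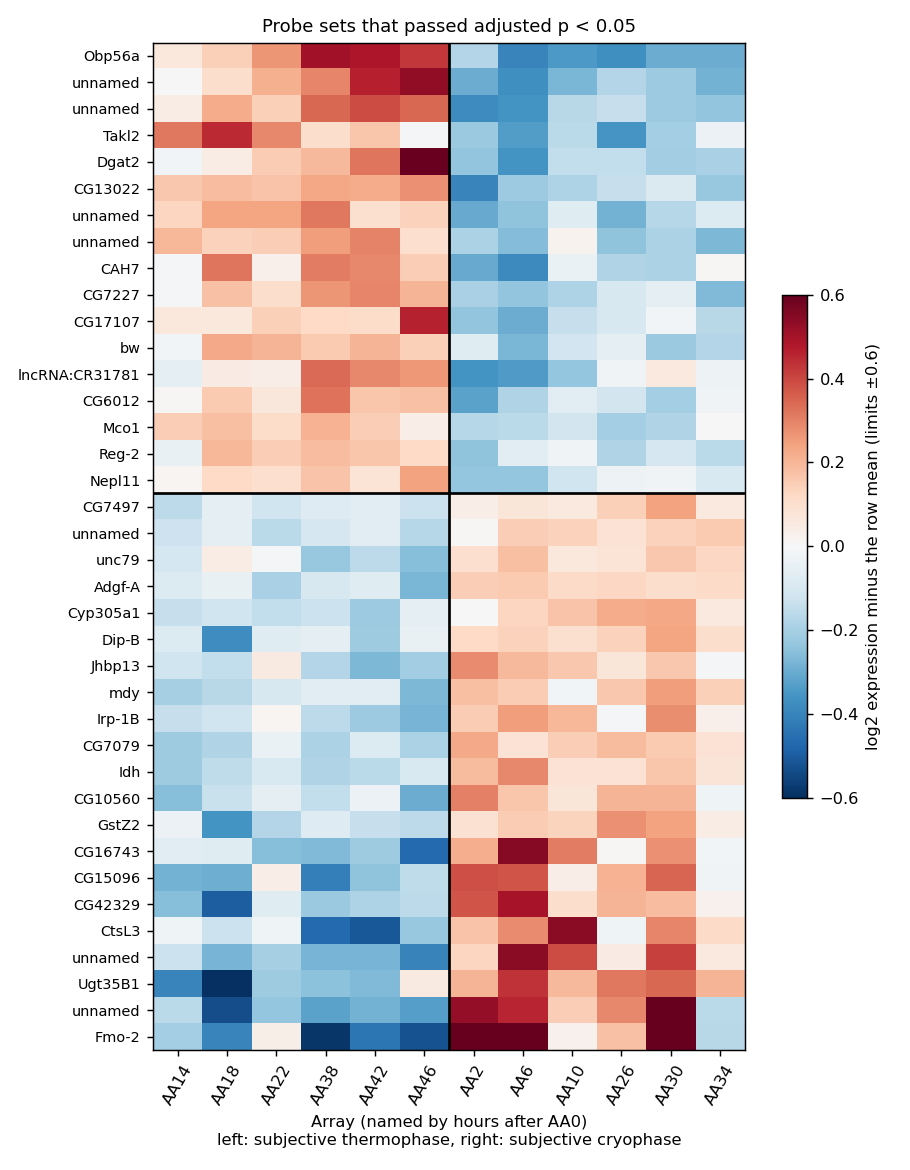
Heat map of the 38 probe sets that passed, 1 per row, ordered by difference; columns are the arrays, thermophase on the left and cryophase on the right, and colour is the log2 level minus the mean of the row, with the scale ending at 0.6 in either direction. The upper 17 rows are mostly red on the left and the lower 21 mostly blue there, and labels read unnamed where no single gene is known; the rows of Dgat2 and CG17107 are reddest on AA46.

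The phases did not share any level in 30 of the 38 probe sets. In 14 of the 17 that rose, every thermophase array read above every cryophase array, as in 29 probe sets of all tested (0.26%). In 16 of the 21 that fell, every thermophase array read below every cryophase array, as in 36 of all tested (0.323%). These 38 were chosen by the same contrast, so the separation describes them and is no further evidence.

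Obp56a encodes an odorant-binding protein, one of the small secreted proteins that carry odorants in the fluid of sensory hairs. It read 8.61 to 9.05 log2 on the thermophase arrays, with a median of 8.89, against 8.15 to 8.37 with a median of 8.22 on the cryophase arrays. Thermophase arrays of day 2 lay highest, and no array of one phase reached the range of the other. The difference was 0.63 ± 0.06 log2 (SE, n = 6 arrays each), or 1.54-fold, with a limma adjusted p of 0.000282. This rise passed on each day alone, with differences of 0.46 on day 1 (limma adjusted p = 0.0371) and 0.79 on day 2 (adjusted p = 0.000248). Its interaction with day had an unadjusted limma p of 0.00617 and an adjusted p of 0.998.

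Takl2, a relative of the kinase TAK1, rose 1.35-fold (limma adjusted p = 0.0093). Its levels were 4.40 to 4.86 log2 in the thermophase (median 4.64) and 4.06 to 4.38 in the cryophase (median 4.20), and the thermophase arrays of day 1 were the highest. AA46 read lowest of the thermophase arrays, at 4.40, just above AA34, the highest of the cryophase arrays, at 4.38. The cryophase levels lay near those of probe sets too dim for the filter, such as that of Clk (cryophase mean 4.23 log2).

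2 diacylglycerol acyltransferases, enzymes that add the last fatty acid in triglyceride synthesis, moved in opposite directions. Dgat2 read 4.35 to 4.96 log2 in the thermophase (median 4.54) and 4.01 to 4.22 in the cryophase (median 4.16), a 1.35-fold rise (difference 0.43 ± 0.07 log2, SE, limma adjusted p = 0.0093). AA46 gave its highest value, and without that array the difference was 0.37 log2 with an adjusted p of 0.00207. The cryophase levels of Dgat2, like those of Takl2, lay near those of probe sets too dim for the filter, so its rise was read on a dim signal. The other enzyme, mdy (midway, the fly DGAT1), read 8.49 to 8.69 log2 in the thermophase (median 8.62) and 8.74 to 9.01 in the cryophase (median 8.91), a 1.22-fold fall (difference -0.29 ± 0.05 log2, SE, limma adjusted p = 0.016). The phases did not overlap for either gene. A second probe set of mdy, at a lower signal, averaged 5.01 log2 in the thermophase and 5.18 in the cryophase and did not pass.

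**Figure D2:**
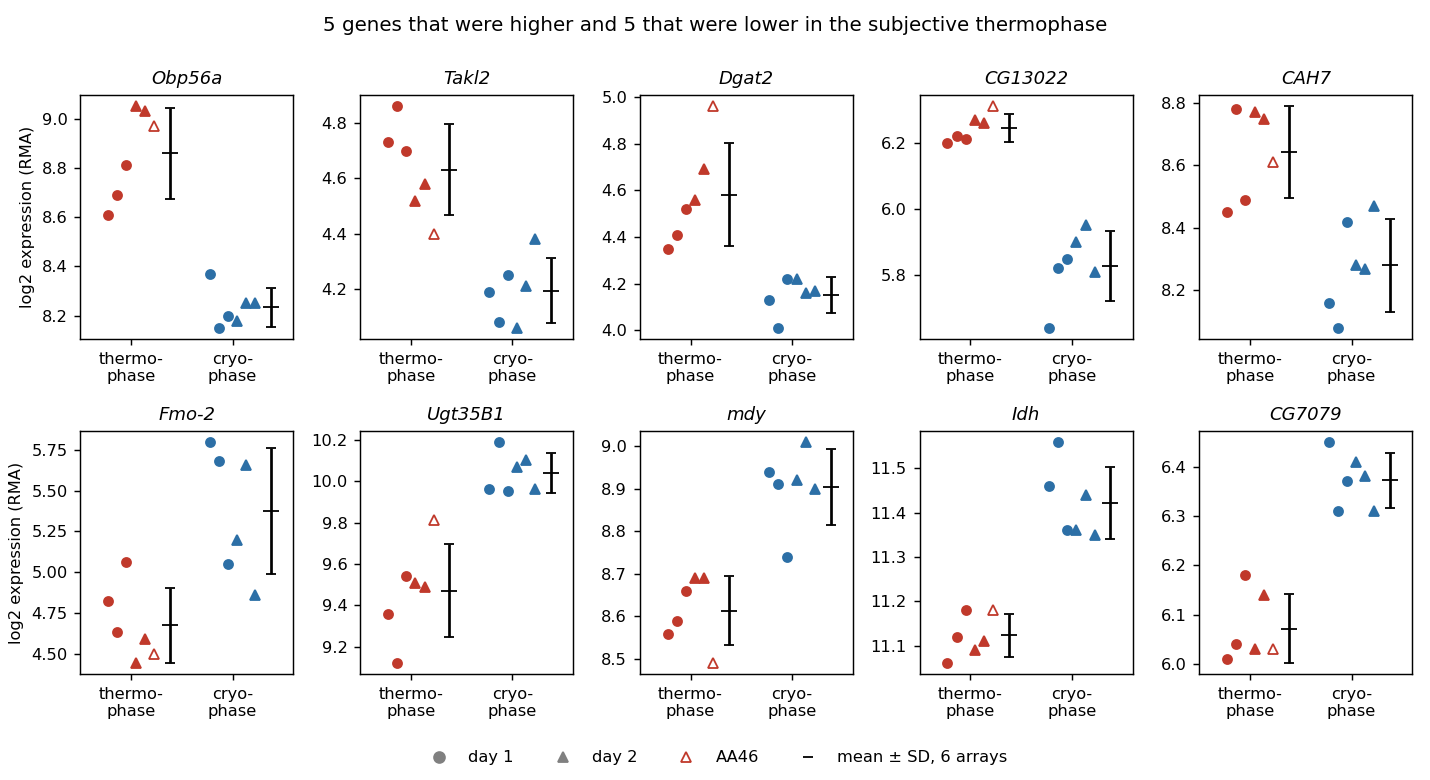
Log2 expression of 5 genes that rose (upper panels) and 5 that fell (lower panels), thermophase on the left of each panel and cryophase on the right; circles are arrays of day 1, triangles arrays of day 2, the open triangle is AA46, and bars give the mean ± SD of 6 arrays. Obp56a ranged over 8.61 to 9.05 in the thermophase and 8.15 to 8.37 in the cryophase, and of the 10 genes only CAH7 and Fmo-2 show overlapping phases.

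Among the other named genes that rose, CAH7, a member of the carbonic anhydrase family, which interconverts carbon dioxide and bicarbonate, averaged 8.64 ± 0.15 log2 in the thermophase and 8.28 ± 0.15 in the cryophase (SD, n = 6 each). That was a 1.29-fold rise (limma adjusted p = 0.0319), although the lowest thermophase array, AA14 at 8.45, lay within the cryophase range of 8.08 to 8.47. It was the only one of 10 carbonic anhydrase genes tested to pass. At unadjusted p 0 of the 10 were lower, against 1 without AA46. Mco1, a multicopper oxidase, averaged 5.33 ± 0.06 log2 in the thermophase and 5.05 ± 0.07 in the cryophase, a 1.21-fold rise (adjusted p = 0.0125) with no overlap. Nepl11, of the neprilysin family of peptidases, averaged 9.13 ± 0.08 in the thermophase and 8.89 ± 0.09 in the cryophase, a 1.18-fold rise (adjusted p = 0.019), the smallest of the 17.

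The brown gene bw, which encodes a transporter of eye pigment precursors and is one of the mutated genes of the strain, also rose. Its level was 7.54 to 7.78 log2 in the thermophase (median 7.74) and 7.28 to 7.50 in the cryophase (median 7.41), with no overlap (1.24-fold, limma adjusted p = 0.0156). A second bw probe set, too dim for the filter, averaged 4.02 log2 in the thermophase and 3.98 in the cryophase. cn (cinnabar, kynurenine hydroxylase), the other mutated gene, averaged 4.82 log2 in the thermophase and 4.69 in the cryophase and did not pass (adjusted p = 0.53).

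CG13022 was nearly level within the thermophase, at 6.20 to 6.31 log2 (median 6.24), and read 5.64 to 5.95 in the cryophase (median 5.84). The 1.33-fold rise had a limma adjusted p of 0.000355 and passed on day 1 alone. CG7227 (1.27-fold), CG17107 (1.25-fold), lncRNA:CR31781 (1.24-fold), CG6012 (1.23-fold) and Reg-2 (rhythmically expressed gene 2, 1.20-fold) completed the named genes that rose, with limma adjusted p between 0.0035 and 0.0461. The arrays of the phases overlapped for lncRNA:CR31781, whose levels were higher on day 2 than on day 1 in either phase, and for Reg-2. A second probe set of lncRNA:CR31781 averaged 6.23 log2 in the thermophase and 6.07 in the cryophase and did not pass (adjusted p = 0.589). For CG17107 the highest array was AA46 at 7.58 log2, and without it the difference was 0.27 in place of 0.32 (adjusted p = 0.00968).

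2 further genes, CG16704 and CG7135, came next by p and did not pass on all 12 arrays. CG7135 averaged 8.60 ± 0.19 log2 in the thermophase and 8.19 ± 0.24 in the cryophase (limma adjusted p = 0.0623). Both passed without AA46, at adjusted p of 0.0217 for CG16704 and 0.00597 for CG7135, and both also passed on all 12 arrays with array weights or with repeated quantile normalization.

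Among the genes that fell, Fmo-2, a flavin-containing monooxygenase that oxidizes foreign compounds, had the largest difference. Its level was 4.44 to 5.06 log2 in the thermophase (median 4.61) and 4.86 to 5.80 in the cryophase (median 5.43), a 1.63-fold fall (difference -0.70 ± 0.13 log2, SE, limma adjusted p = 0.0284). The ranges overlapped through AA22 at 5.06 on one side and AA10 at 5.05 and AA34 at 4.86 on the other, each the last collection of its phase. The call was lost when any 1 of 7 arrays was left out. The thermophase levels of Fmo-2 were close to those of Takl2 (4.40 to 4.86) and Dgat2 (4.35 to 4.96), so its fall ended on a dim signal.

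Ugt35B1, a UDP-glycosyltransferase, an enzyme class that attaches sugars to small molecules for excretion, read 9.12 to 9.81 log2 in the thermophase (median 9.50) and 9.95 to 10.19 in the cryophase (median 10.02). Every thermophase array lay below every cryophase array, and AA46 came nearest to them. The fall was 1.48-fold (-0.57 ± 0.08 log2, SE, limma adjusted p = 0.00418) and passed on day 1 alone. A second, dimmer probe set of the gene averaged 5.47 log2 in the thermophase and 5.54 in the cryophase and did not pass.

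Several metabolic enzymes fell by similar amounts. Idh, isocitrate dehydrogenase, read 11.06 to 11.18 log2 in the thermophase (median 11.12) and 11.35 to 11.56 in the cryophase (median 11.40), with no overlap (1.23-fold, limma adjusted p = 0.00743). GstZ2, a zeta-class glutathione transferase of the family of maleylacetoacetate isomerases in tyrosine breakdown, averaged 7.34 ± 0.11 log2 in the thermophase and 7.66 ± 0.09 in the cryophase (1.24-fold, adjusted p = 0.0163). Irp-1B, of the family of cytosolic aconitases that double as iron regulatory proteins, averaged 8.07 ± 0.10 in the thermophase and 8.37 ± 0.12 in the cryophase (1.23-fold, adjusted p = 0.0163). The arrays of the phases overlapped for Irp-1B and not for Idh or GstZ2.

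CtsL3, of the cathepsin L family of cysteine proteases, fell 1.37-fold and Dip-B, a dipeptidase, fell 1.21-fold. CtsL3 averaged 5.57 ± 0.21 log2 in the thermophase and 6.03 ± 0.19 in the cryophase, and Dip-B averaged 8.34 ± 0.13 in the thermophase and 8.62 ± 0.05 in the cryophase (SD, n = 6 each; limma adjusted p = 0.0093 and 0.0436). Cyp305a1, a cytochrome P450, fell 1.21-fold without overlap, at 8.16 to 8.32 log2 in the thermophase and 8.38 to 8.61 in the cryophase (adjusted p = 0.016). CG42329 (1.38-fold), CG15096 (1.36-fold), CG16743 (1.36-fold) and CG10560 (1.24-fold) were the other falls among the 15 largest, with adjusted p between 0.00871 and 0.0436. A second probe set of CG42329 averaged 5.47 log2 in the thermophase and 5.58 in the cryophase and did not pass (adjusted p = 0.612).

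2 of the 12 members of the takeout family tested fell. The founding gene of this family of secreted proteins, which resemble juvenile hormone binding proteins, is a known output of the clock. CG7079 read 6.01 to 6.18 log2 in the thermophase (median 6.03) and 6.31 to 6.45 in the cryophase (median 6.38), and Jhbp13 read 9.40 to 9.72 in the thermophase (median 9.50) and 9.66 to 9.95 in the cryophase (median 9.83). The falls were 1.23-fold for CG7079 (limma adjusted p = 0.00532) and 1.22-fold for Jhbp13 (adjusted p = 0.0107), and the phases overlapped only for Jhbp13. Jhbp14 and CG31189 were also lower at unadjusted p, by 0.11 and 0.13 log2, and the median of the 12 was -0.03. No member was higher at unadjusted p on all 12 arrays, against 3 without AA46.

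3 more genes passed and were named after their values were seen. Adgf-A, a secreted adenosine deaminase, read 7.29 to 7.52 log2 in the thermophase and 7.67 to 7.72 in the cryophase, where the 6 arrays were nearly equal (1.19-fold, limma adjusted p = 0.016). unc79, an accessory protein of the sodium leak channel that clock neurons use to set their excitability, read 8.52 to 8.82 in the thermophase and 8.84 to 8.96 in the cryophase (1.18-fold, adjusted p = 0.048). CG7497 fell 1.15-fold (adjusted p = 0.0499). unc79 and CG7497 were the weakest calls of the 38: they passed in 2 and 1 of the 12 fits that left out 1 array. Neither passed without AA46 (limma adjusted p = 0.0589 for unc79 and 0.0649 for CG7497).

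The remaining 7 probe sets could not be tied to a single gene. One of the 4 that rose had the joint lowest limma adjusted p of all, 0.000282, shared with Obp56a: it read 9.78 to 10.13 log2 in the thermophase and 9.36 to 9.60 in the cryophase, and it passed on each day alone.

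Within each day, the phase difference came from the 3 arrays of either phase, and its test used the spread over all 12 arrays. On day 1, 5 probe sets passed (0.0448%), namely Obp56a, Takl2, CG13022, Ugt35B1 and 1 without a gene name, and on day 2, 3 passed (0.0269%), namely Obp56a and 2 without a gene name. No probe set passed the test of the difference between days in limma (0.0%), whose lowest adjusted p was 0.998, while 360 had an unadjusted p under 0.05. All 38 probe sets called on both days together moved the same way on each day, as a call from the pooled contrast favours.

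The days share no array, so probe sets picked on one day were read on the other. The 62 probe sets higher in the thermophase on day 1 at an unadjusted limma p under 0.01 were higher on day 2 in 55 cases (88.7%), against 56.6% of all probe sets. The 51 lower on day 1 were lower on day 2 in 46 cases (90.2%), against 43.3% of all. Their median difference on day 2 was 0.15 log2 for those picked as higher and -0.19 for those picked as lower, smaller than on day 1, where it was 0.28 and -0.30.

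Picked on day 2 instead, 87 of 111 higher probe sets were higher on day 1 (78.4%, against 50.8% of all), and 124 of 169 lower ones were lower (73.4%, against 49.1% of all). Day 2 holds AA46. Without it, 67 of 77 (87.0%) picked as lower on day 1 and 76 of 100 (76.0%) picked as lower on day 2 were lower on the other day, against 46.6% and 49.1% of all. Likewise 77 of 94 (81.9%) picked as higher on day 1 and 95 of 122 (77.9%) picked as higher on day 2 were higher on the other day, against 53.4% and 50.8% of all. The arrays of both days were normalized together and shared 1 estimate of the spread.

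**Figure D3:**
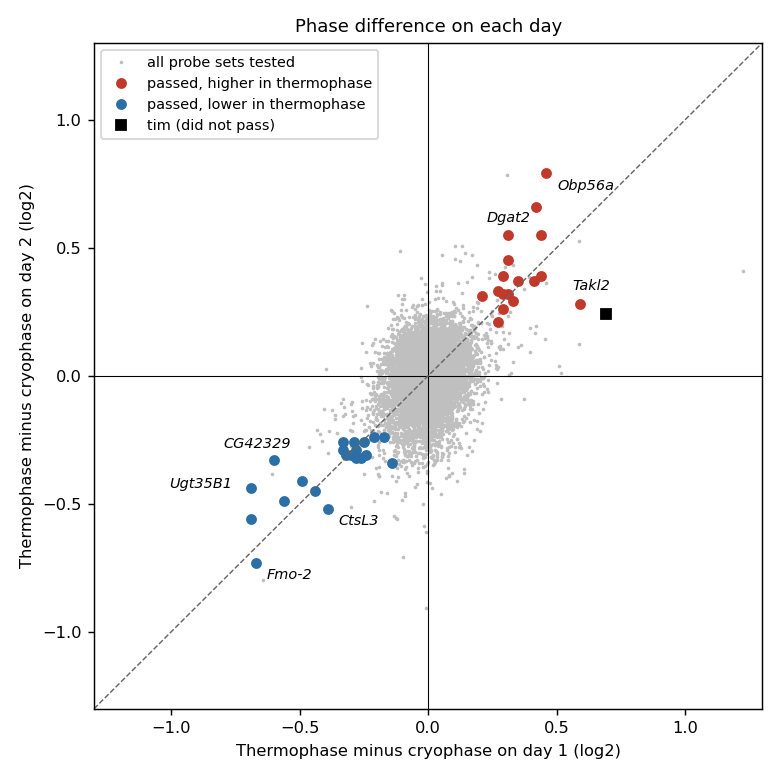
Thermophase minus cryophase on day 2 (vertical, log2) against the same on day 1 (horizontal, log2) for the 11156 probe sets tested (grey), the 17 that rose (red), the 21 that fell (blue) and tim (black square); the dashed line marks equal differences. Obp56a lies at 0.46 on day 1 and 0.79 on day 2, and tim at 0.69 on day 1 and 0.24 on day 2.

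Times of the highest and lowest mean within the phases were counted for the probe sets that passed. Of the 21 that fell, 16 were highest at 6 h after the onset of the cryophase, 3 at 2 h and 2 at 10 h. Among the 4410 probe sets tested that had their highest mean in the cryophase, 41.2% were highest at 6 h, 32.5% at 2 h and 26.3% at 10 h. Their lowest mean was at 14 h in 5 cases, at 18 h in 10 and at 22 h in 6, beside 28.3%, 32.2% and 39.5% of all those lowest in the thermophase. The 17 that rose were highest at 14 h in 4 cases, at 18 h in 7 and at 22 h in 6, near the shares of 23.1%, 37.7% and 39.2% among all those highest in the thermophase. Their lowest mean was at 2 h in 8 cases, at 6 h in 8 and at 10 h in 1, beside 29.3%, 40.5% and 30.2%. A comparison of 12-h blocks favours transcripts that are extreme near the middle of the blocks, so these times are described and not tested.

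None of the 7 core clock genes that were tested passed between phases on all 12 arrays. timeless (tim), whose product pairs with PERIOD, read 8.91 to 9.57 log2 in the thermophase (median 9.49) and 8.47 to 9.38 in the cryophase (median 8.93). The difference was 0.46 ± 0.13 log2 (SE), or 1.38-fold, with a limma adjusted p of 0.214 and an exact two-sided permutation p of 0.03 over the 400 assignments within days, for which the smallest p is 0.005. AA46 at 8.91 was the lowest thermophase array and AA34 at 9.38 the highest cryophase array. Without AA46 the difference was 0.58 log2 and tim passed (adjusted p = 0.00831), as it did with arrays weighted by quality. The brightest probe set of tim stands for the gene here, and a second averaged 5.94 log2 in the thermophase and 5.55 in the cryophase.

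period (per), vrille (vri) and Pdp1 had higher means in the thermophase with overlapping ranges. per averaged 6.44 ± 0.13 log2 in the thermophase and 6.23 ± 0.28 in the cryophase (exact permutation p = 0.13), and vri, a repressor of Clk, averaged 8.92 ± 0.18 in the thermophase and 8.56 ± 0.44 in the cryophase (exact permutation p = 0.12). The cryophase spread of both held a low and a high end: AA10 and AA34, the last collections of that phase, read 6.46 and 6.64 for per and 8.81 and 9.23 for vri, above the other cryophase arrays. Pdp1, an activator of Clk, averaged 6.37 ± 0.14 in the thermophase and 6.18 ± 0.13 in the cryophase (exact permutation p = 0.025, limma adjusted p = 0.396).

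Cryptochrome (cry), the blue light receptor of clock cells, was lower in the thermophase, at 9.35 ± 0.09 log2, than in the cryophase, at 9.53 ± 0.11 (SD, n = 6 each). Its exact permutation p was 0.01 and its limma adjusted p 0.214. 5 of the 6 cryophase arrays, at 9.51 to 9.61, lay above all thermophase arrays, at 9.25 to 9.46, and AA2 at 9.31 did not. Clk averaged 3.89 ± 0.32 log2 in the thermophase and 4.23 ± 0.33 in the cryophase and was too dim for the filter (exact permutation p = 0.085). For cyc and cwo the differences were -0.05 and -0.03 log2 (exact permutation p = 0.37 and 0.88). That of cwo, a repressor in the loop, changed sign without AA46, to 0.09 log2.

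**Figure D4:**
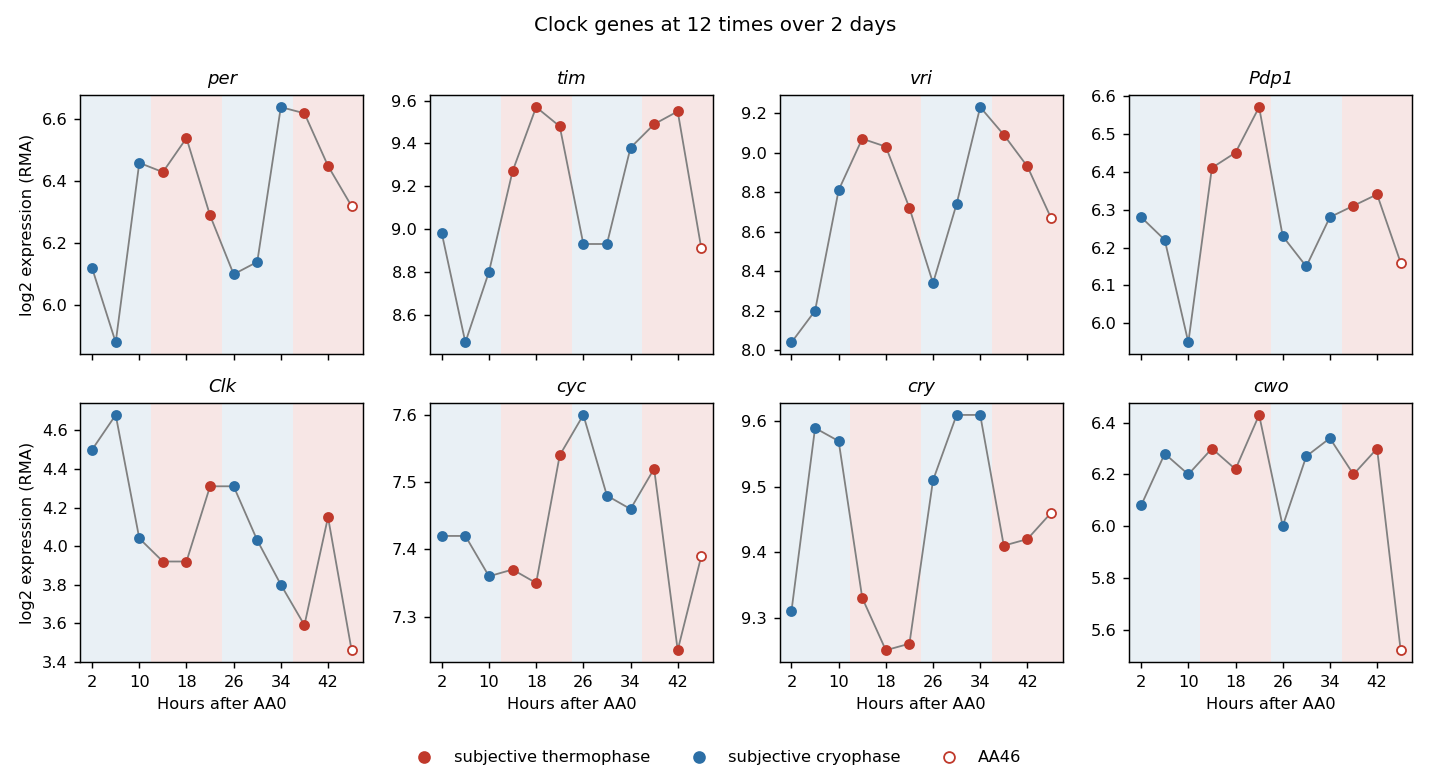
Log2 expression of 8 clock genes on the 12 arrays against hours after AA0, with the subjective cryophase shaded blue and the subjective thermophase shaded red; the open circle is AA46. Among cryophase arrays, per and vri read highest on AA10 and AA34, at the end of that phase. On day 1 per was highest at AA18 (6.54) and vri at AA14 (9.07), and on day 2 both were highest at AA34. The level of tim was highest at AA18 and AA42 and read 9.38 on AA34. That of cwo read 5.52 on AA46 and 6.0 to 6.43 on all other arrays.

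Beyond the clock, 36 lists of genes by function were described by the number of members past an unadjusted limma p under 0.05, beside 4.58% higher and 4.28% lower over all probe sets tested, and by the median difference, beside 0.008 log2 over all. Few members passed after adjustment: Obp56a, bw and CAH7 among the genes that rose, and Ugt35B1, GstZ2, Idh, mdy, CG7079, Jhbp13 and Cyp305a1 among those that fell.

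In the immune list (antimicrobial peptides, Bomanins and recognition proteins), members past the unadjusted threshold lay on 1 side. Of 26 tested, 9 were higher in the thermophase at unadjusted p and 0 lower, and 20 had a positive difference, with a median of 0.07 log2. None passed after adjustment. Mtk, the antifungal peptide metchnikowin, read 11.62 to 11.93 log2 in the thermophase (median 11.83) and 11.23 to 11.66 in the cryophase (median 11.57), with a limma adjusted p of 0.169. BomS6, a Bomanin, averaged 10.59 log2 in the thermophase and 10.36 in the cryophase (adjusted p = 0.0957): its level was lower on day 2 than on day 1 in either phase, and within each day the thermophase was higher, by 0.21 on day 1 and 0.25 on day 2. All 8 Bomanins tested had positive differences, between 0.01 and 0.23 log2, a subgroup looked at after its values were seen. CecB, PGRP-SC2 and GNBP3 were higher by 0.19, 0.19 and 0.17 log2. Without AA46 the list had 9 members higher and 1 lower.

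Translation factors showed 8 of 37 members higher at unadjusted p and 1 lower, with a median of 0.04 log2. 7 of the 8 were subunits of eIF3, the complex that prepares the small ribosomal subunit for initiation, and 14 of the 16 subunits tested had a positive difference (median 0.08), a subgroup looked at after its values were seen. eIF3m averaged 9.79 ± 0.12 log2 in the thermophase and 9.56 ± 0.06 in the cryophase (limma adjusted p = 0.0749). Ribosomal proteins had 5 of 35 members higher and 0 lower, led by RpS29 (8.12 log2 in the thermophase and 7.87 in the cryophase, adjusted p = 0.115, and 0.0211 without AA46). Without AA46 the list had 3 members higher and 1 lower. Mitochondrial ribosomal proteins had 5 of 64 higher and 0 lower, with a median of 0.01. Members of oxidative phosphorylation were balanced, with 1 of 62 higher and 2 lower, against 1 lower without AA46.

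Heat shock proteins and chaperones had 4 of 15 members higher at unadjusted p (Hsp26, Hsp27, Hsp68 and DnaJ-1, by 0.10 to 0.17 log2) and 0 lower, at a median of 0.01. None passed after adjustment, and the temperature was the same on all arrays. Odorant-binding proteins had 5 of 26 members higher and 1 lower, with a median of 0.03. Besides Obp56a, Obp56e was higher by 0.36 and Obp99b by 0.27 log2, while Obp56h averaged 7.68 log2 in the thermophase and 7.97 in the cryophase (limma adjusted p = 0.225).

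**Figure D5:**
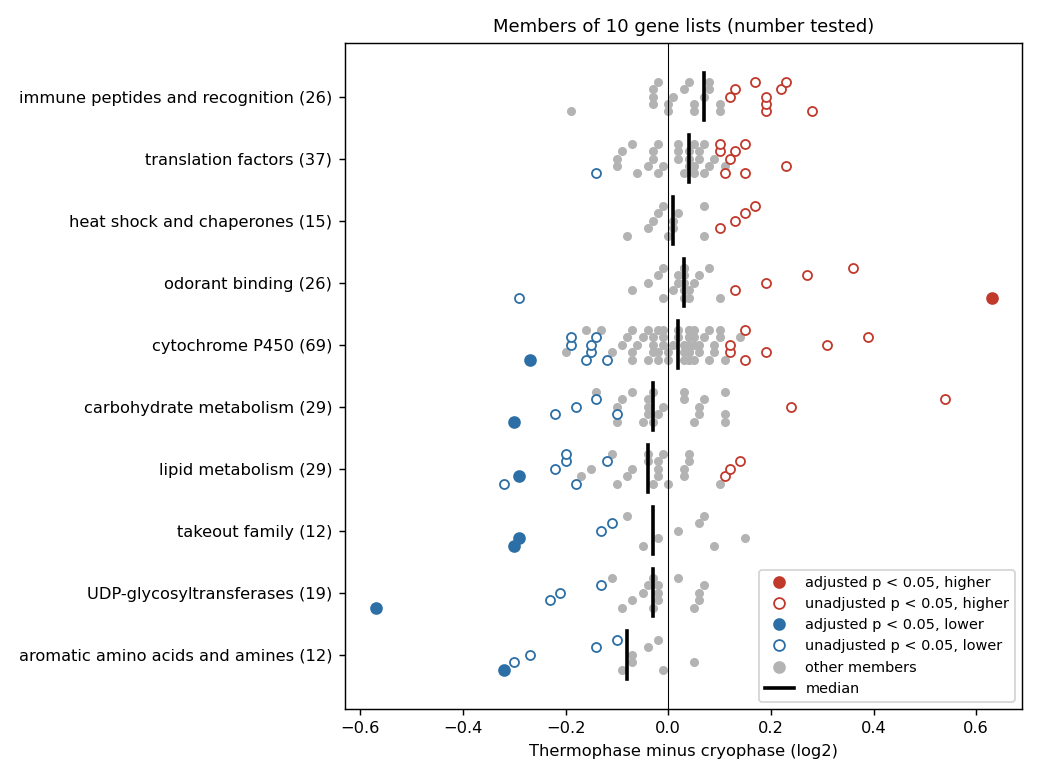
Thermophase minus cryophase (log2) of each tested member of 10 gene lists, with filled points past adjusted p under 0.05, open points past unadjusted p under 0.05, grey points for the rest and black bars at the medians; red is higher and blue lower in the thermophase. The median is 0.07 for the immune list and -0.08 for aromatic amino acids and amines, and Obp56a at 0.63 and Ugt35B1 at -0.57 lie farthest out.

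The lists of metabolism held more lower than higher members. Of 12 genes of aromatic amino acids and amines, 11 had a negative difference, 5 were lower in the thermophase at unadjusted p and 0 higher, with a median of -0.08 log2. They span the breakdown of tyrosine through Hpd, hgo and GstZ2 and the making and packing of dopamine through ple and Vmat. Hpd, 4-hydroxyphenylpyruvate dioxygenase, read 9.31 to 9.47 log2 in the thermophase (median 9.44) and 9.35 to 9.87 in the cryophase (median 9.79), where AA34 at 9.35 lay below the other 5 (limma adjusted p = 0.134). ple, tyrosine hydroxylase, which makes the precursor of dopamine, averaged 7.21 ± 0.08 in the thermophase and 7.48 ± 0.23 in the cryophase, with its highest levels of 7.76 on AA2 and AA6 (adjusted p = 0.115).

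Lipid metabolism had 7 of 29 members lower at unadjusted p and 3 higher, with a median of -0.04 log2. Lower beside mdy were both glycerol kinases, Gk1 and Gk2, by 0.20 each, the carnitine palmitoyltransferases whd and CPT2, which bring fatty acids into mitochondria, by 0.18 and 0.12, Hmgs by 0.22 and Acsx3 by 0.32. A second probe set of Hmgs gave a difference of 0.05. The lipase bmm (brummer), Lpin and FASN2 were higher, by 0.11 to 0.14. Gk1 read 8.27 to 8.41 in the thermophase and 8.44 to 8.70 in the cryophase, without overlap (limma adjusted p = 0.134).

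Carbohydrate metabolism had 5 of 29 members lower and 2 higher. Lower beside Idh were Hex-A (hexokinase), Pfk, Ald1 (aldolase) and fbp (fructose-1,6-bisphosphatase), by 0.10 to 0.22 log2. The maltase Mal-B1 read 5.61 to 5.74 in the thermophase and 5.20 to 5.60 in the cryophase (limma adjusted p = 0.0941), and tobi, a glucosidase that responds to insulin-producing cells, was higher by 0.54 (adjusted p = 0.402).

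Many of these metabolic and immune genes are active in the fat body, whose markers were read beside them. The summed signal of Yp1, Yp2, Yp3, fit and apolpp on the linear scale was 44007 to 52942 on the thermophase arrays (median 48659) and 44045 to 55914 on the cryophase arrays (median 52843). 2 of the 5 were lower in the thermophase at unadjusted p and 0 passed. The longer list of fat body and yolk genes went both ways. Of its 12 members tested, 3 were lower and 2 higher at unadjusted p, with a median of -0.01 log2. fit, a female-enriched gene of the head fat body, averaged 8.05 log2 in the thermophase and 8.77 in the cryophase (limma adjusted p = 0.336), with far larger differences between days: its thermophase arrays read 9.0 to 9.55 on day 1 and 6.57 to 6.86 on day 2. The part of fat body content in the lists was not tested, nor was that of the low glial sum of AA46, which mainly reads Gs2.

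Detoxification genes were split by family. UDP-glycosyltransferases had 4 of 19 members lower and 0 higher, Ugt302C1 and Ugt35A1 by 0.23 and 0.21 log2 beside Ugt35B1. Of 33 glutathione transferases, 3 were lower and 1 higher, against 2 higher without AA46. Cytochromes P450 went both ways, with 7 of 69 higher and 8 lower at a median of 0.02. Cyp12d1-d averaged 9.84 ± 0.21 in the thermophase and 9.45 ± 0.14 in the cryophase (limma adjusted p = 0.0852), although its near-identical neighbour Cyp12d1-p may share its signal. Cyp4d1 averaged 6.07 in the thermophase and 5.76 in the cryophase (adjusted p = 0.077).

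Of 14 eye pigment genes, 3 were higher at unadjusted p (bw, cn and the pteridine gene se, by 0.31, 0.13 and 0.19 log2) and 0 lower, against 2 higher without AA46, and the median was -0.03. Of 18 phototransduction genes, trp, a light-activated calcium channel of photoreceptors, was higher (11.18 log2 in the thermophase and 10.97 in the cryophase, limma adjusted p = 0.0977) and Pdh lower, and the median was -0.04. Of 15 neuropeptide genes, 0 were past unadjusted p in either direction, as were 0 of 8 clock partners (1 higher without AA46). Among 15 potassium channels only Ork1, a leak channel, was lower (6.01 log2 in the thermophase and 6.28 in the cryophase, adjusted p = 0.287). Cuticle proteins had 3 of 63 members higher and 3 lower, against 1 higher and 4 lower without AA46. TpnC41C, a muscle troponin C, averaged 7.22 in the thermophase and 6.91 in the cryophase and did not pass on all 12 arrays (adjusted p = 0.102), but did without AA46 (adjusted p = 0.0203) and with arrays weighted by quality.

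The count of probe sets that passed depended on single arrays. It was 49 without AA46, of which 36 were among the 38, and 17 without AA6, 20 without AA26, 23 without AA2 and 24 without AA30, all early or middle collections of the cryophase. With the arrays weighted by their quality, where AA46 had the lowest weight (0.24, against 0.68 to 1.68), 77 passed, 47 of them higher (61.0%, against 44.7% with equal weights). On the linear scale 20 passed, 11 of them higher (55.0%). In all 12 fits that left out 1 array, 17 of the 38 passed, 10 that rose and 7 that fell, among them Obp56a, Takl2, Dgat2, CG13022, CG7227 and lncRNA:CR31781 on the rising side and Ugt35B1, CG7079, Idh, CG16743, CtsL3 and Jhbp13 on the falling side.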

How the data were processed

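The authors hybridized RNA from pooled heads to Affymetrix Drosophila Genome 1 arrays and deposited log2 values from RMA (background subtraction, quantile normalization, median polish; version not given in the sources used here). Probe sets were named by the platform annotation with symbols updated from RefSeq genes of Release 6: 12443 probe sets had 1 symbol, 327 several and 1196 none, and only the first were named. Groups and days came from the collection times in the sample titles. Phases were compared by limma 3.58.1 (R 4.3.3; lmFit, eBayes, two-sided) with day as a fixed block, and days by group means and their interaction. Core clock genes also had an exact permutation test within days. The number of arrays limits the precision.

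The genes named were the core clock genes, the 15 largest calls in each direction, completed by the lowest limma p, and up to 3 members of each of 37 lists at unadjusted p under 0.05. A gene with several probe sets is represented by the one with the highest mean. Members, lists and tests were chosen with earlier results of these data known. Data simulated for this comparison over 11156 probe sets held 50 changed probe sets at each of 0.2, 0.3, 0.5 and 1 log2. Of these, 50% at 0.2, 78% at 0.3 and 100% at 0.5 and 1 were called, with 14 false calls. More probe sets passed there than on the real arrays, which loosens a Benjamini-Hochberg cutoff. The shares at 0.2 and 0.3 log2 can therefore overstate what was detectable on the real arrays. Alternatives covered the block, array weights, filters, normalization, eBayes options, the linear scale and arrays left out. Promoter sequences were not used here.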

Additional observations from a re-analysis of the deposited data

Results flagged for a closer look

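In groups of 6 arrays, a single array lay far from the other 5 by Dixon's criterion in 13 of the 204 groups examined, where chance flags about 1 in 20 groups.

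AA46 was that array in 3 thermophase groups: the 18S ribosomal RNA control read 4.09 log2 there and 2.80 to 2.99 on the others, cwo read 5.52 against 6.20 to 6.43, and CG17107 read 7.58 against 7.18 to 7.26. AA14 was the low array of the thermophase for bw, at 7.54 against 7.70 to 7.78, and for Reg-2, at 7.20 against 7.36 to 7.44.

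In the cryophase, AA34 was low for Mtk (11.23 against 11.56 to 11.66), Apoltp (9.25 against 9.51 to 9.66) and Hpd (9.35 against 9.69 to 9.87). AA30 was high for Dip-B (8.72 against 8.58 to 8.62), GstE11 (7.43 against 7.22 to 7.29) and Non1 (9.80 against 9.44 to 9.55). AA2 was low for cry, at 9.31 against 9.51 to 9.61, and AA10 was high for Obp46a, at 6.44 against 6.22 to 6.30.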

How the results depend on the processing

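The 38 calls became 77 with array weights, 62 without AA34 and AA46 and 20 on the linear scale, and 17 to 49 when 1 array was left out, with the fewest without AA6 and the most without AA46. Of the rest, 28 passed without the day block, and 33 to 47 under the other filters, normalizations and eBayes options. The share of calls that were higher, 44.7% in all, was 61.0% with array weights, 55.0% on the linear scale, 59.2% without AA46 and 64.3% without AA14. Within day 1, the 5 calls became 26 with array weights and 0 to 16 with 1 array left out: 16 without AA46, 1 without AA26 or AA34, and 0 without AA2, AA6, AA18, AA22, AA30 or AA38. Within day 2, the 3 calls became 7 with array weights and up to 5 with 1 array left out, without AA38 or AA46. The difference between days gave 0 to 1 calls, the 1 without AA14. The difference of cwo changed sign to 0.06 log2 with array weights, 0.12 without AA34 and AA46, 0.01 without AA34 and 0.09 without AA46, and with 1 array left out it ranged between -0.08 and 0.09. No other named gene changed direction, list medians moved by less than their spread, counts of members at unadjusted p moved by over 1.5 times in 8 lists without AA46 and in 3 with every probe set of a gene, and the cause was not tested.

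No paired analysis was run, and the labels give the arrays no replicate numbers. A block for the hour within the phase, added to the block for day, gave 34 calls. It did not pair single arrays. With 1 array for each time on each day, the spread within a phase holds any change between its 3 times. RMA would hide a shift shared by most transcripts. Of simulated differences of 0.2 log2, 50% were called. More probe sets passed in the simulated data than on the real arrays, so this share can be too high. The simulated noise was also equally wide on every array, unlike that of the real ones.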

Other observations

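The largest difference of all probe sets tested belonged to a probe set without a gene name, picked out after its values were seen. It read 7.71, 8.89 and 8.78 log2 on the day 1 thermophase arrays and 8.20, 8.54 and 8.21 on those of day 2, against 7.34, 7.23 and 7.14 on the day 1 cryophase arrays and 7.88, 7.96 and 7.88 on those of day 2. The phase difference was 1.23 log2 on day 1 and 0.41 on day 2. Over both days its limma adjusted p was 0.0772, and 0.0285 without AA46.

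Genes of ribosome assembly in the nucleolus had 2 of 9 members lower at unadjusted p in the thermophase and 1 higher. Fib (fibrillarin) averaged 7.36 log2 in the thermophase and 7.61 in the cryophase (limma adjusted p = 0.263), and Non1 averaged 9.80 in the thermophase and 9.54 in the cryophase (adjusted p = 0.174), with a difference of 0.04 on its second probe set. The only tested member of the cold and stress list, smp-30, averaged 8.23 log2 in the thermophase and 7.91 in the cryophase (adjusted p = 0.239). MsrA, a methionine sulfoxide reductase that repairs oxidized proteins, averaged 7.81 in the thermophase and 7.50 in the cryophase (adjusted p = 0.214), with a difference of 0.10 on day 1 and 0.51 on day 2. The autophagy genes Atg1 and Atg18b had differences of -0.20 and -0.16 log2 (adjusted p = 0.502 and 0.547), and of -0.12 and -0.09 without AA46, when 0 of the 18 autophagy genes tested were past unadjusted p.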
